A study of Mus musculus with 24 samples.

Results

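The genes described here are 35 genes of cholesterol synthesis, fatty-acid synthesis and the liver X receptors (LXRs), chosen by name. Of these, 29 had a probe with their symbol on the Illumina MouseRef-8 v2 BeadChip, and Acat2, Mvk, Fdft1, Nr1h2, Npc1 and Soat1 were not analysed here. Gene expression was measured on 24 arrays of mouse bone marrow-derived macrophages (BMDMs), differentiated for 7 days from the marrow of C57BL/6 mice 8 to 10 weeks old in medium conditioned by L929 cells and then kept in 10 ng/ml macrophage colony-stimulating factor per the study's methods, in 2 experiments of 12 arrays. In the IKKβ experiment, wt BMDMs came from mice with loxP-flanked Ikbkb alleles and no Cre, and IKKβ-deficient BMDMs from mice with the same alleles and Mx1-Cre, whose promoter is driven by interferon and which deletes the gene in many cell types besides macrophages. In the p38 experiment, C57BL/6 BMDMs received 10 μM SB202190, an inhibitor of p38α and p38β, for 2 h, or the vehicle dimethyl sulfoxide (DMSO). Cells of each kind were harvested untreated (0 h) or 4 h after the addition of lipopolysaccharide (LPS, 100 ng/ml), the bacterial ligand of TLR4, with 3 arrays per group (replicates 1, 2 and 3). A cell-line entry in the sample labels reads RAW264.7, against the bone marrow culture described in their protocols and in the study's methods. Genes entered the test of an experiment when the detection p of the probe was below 0.05 on 3 or more of its 12 arrays. This kept 24 of the 29 genes among 8569 in the IKKβ experiment and 28 of the 29 among 9123 in the p38 experiment. Abca1 was tested in neither experiment, and Tm7sf2, Mylip, Fasn and Scd2 only in the p38 experiment. All levels below are log2 normalized intensities, and the levels of different genes are not comparable.

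Cells make cholesterol from acetyl-CoA through the mevalonate arm, which ends in farnesyl diphosphate, and then through squalene and lanosterol. Transcription of these genes is driven by SREBP2, and that of the fatty-acid genes mainly by SREBP1c. Scap carries the SREBPs from the endoplasmic reticulum to the Golgi for cleavage, and Insig proteins hold them back when sterols are plentiful. LXRα and LXRβ are nuclear receptors that oxysterols activate, and their targets export cholesterol (Abca1, Abcg1, Apoe), remodel membrane phospholipids (Lpcat3) and degrade the LDL receptor (Mylip). In macrophages 25-hydroxycholesterol, the product of Ch25h, is an oxysterol that both restrains SREBP processing and can activate LXRs.

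Promoters of 3 sterol synthesis genes are shown, that of Hmgcs1 because it alone among these genes held a sterol response element in the window, and those of Hsd17b7 and Lss because their levels are read side by side below. The sequences are from RefSeq on GRCm38.p6, from 250 bases before to 50 bases after the transcription start, 5′ to 3′ on the gene's strand. Capitals mark matches on either strand to CCAAT, the site of NF-Y, and to TCACNCCAC, a form of the sterol response element to which SREBPs bind.
Hmgcs1: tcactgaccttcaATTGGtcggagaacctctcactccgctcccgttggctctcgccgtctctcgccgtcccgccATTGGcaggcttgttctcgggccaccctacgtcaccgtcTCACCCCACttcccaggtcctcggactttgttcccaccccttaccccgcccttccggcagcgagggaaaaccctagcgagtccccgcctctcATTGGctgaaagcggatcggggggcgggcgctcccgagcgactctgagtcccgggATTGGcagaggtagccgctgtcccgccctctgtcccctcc
Hsd17b7: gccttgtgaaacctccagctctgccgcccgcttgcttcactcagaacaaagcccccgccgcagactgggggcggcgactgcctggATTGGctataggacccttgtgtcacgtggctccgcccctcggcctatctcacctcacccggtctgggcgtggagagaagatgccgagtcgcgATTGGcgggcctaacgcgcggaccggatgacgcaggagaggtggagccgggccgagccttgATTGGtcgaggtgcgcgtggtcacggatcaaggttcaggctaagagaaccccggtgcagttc
Lss: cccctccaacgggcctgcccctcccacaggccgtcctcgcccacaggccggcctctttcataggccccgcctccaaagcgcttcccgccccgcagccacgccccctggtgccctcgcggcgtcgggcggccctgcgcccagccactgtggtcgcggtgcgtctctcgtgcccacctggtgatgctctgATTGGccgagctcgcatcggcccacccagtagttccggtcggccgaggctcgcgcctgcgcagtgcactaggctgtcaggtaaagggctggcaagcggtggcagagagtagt
The Hmgcs1 window (chr13:119690101-119690400, plus strand) held 1 match to the sterol response element and 4 to CCAAT. The Hsd17b7 window (chr1:169969156-169969455, minus strand) held 3 matches to CCAAT, and the Lss window (chr10:76531355-76531654, plus strand) held 1. CCAAT matched 12 of 16 promoters of the sterol synthesis genes (75%) and 2 of 6 promoters of the LXR targets (33.3%), against 37.4% of 32851 promoters of all genes. The sterol response element matched 1 of the 16 (6.25%) and 1.24% of all promoters. A direct repeat of AGGTCA with 4 bases between its copies, the element LXRs bind, matched none of the 6 LXR target promoters and 0.0152% of all. These matches are descriptions of letters in a window and not of bound factors.

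Some arrays stood apart, and they bear on every LPS comparison. Ikbkb, the targeted gene, was lower on all 6 IKKβ-deficient arrays (7.52 to 7.86) than on the 6 wt arrays (8.33 to 9.63). At 0 h, Il1b, an LPS response gene, was at 7.03 (wt) and 7.00 (IKKβ-deficient) on replicate 1, but at 10.78 to 13.96 on replicates 2 and 3 of both genotypes, against 14.37 to 15.32 at 4 h. Per the labels, 1 BeadChip carried all arrays of a replicate number. In the p38 experiment, Il1b at 0 h was at 6.95, 14.33 and 11.96 on DMSO replicates 1, 2 and 3 and at 9.29 to 9.49 with SB202190. Of a list of 6 LPS response genes (Il1b, Tnf, Cxcl2, Nfkbia, Tnfaip3 and Ccl4), all 6 were higher at 0 h on replicates 2 and 3 than on replicate 1 in wt and in IKKβ-deficient BMDMs, and in the DMSO control 6 were higher on replicate 2 and 5 on replicate 3. Each LPS result is therefore also read within replicate numbers. With SB202190 such pairs are by label only, since deviations of same-numbered arrays correlated weakly (0.0602 to 0.0935). Counts of pairs below include them. In the p38 experiment the normalized columns and the intensity columns disagree in their labels. For 8 of 12 normalized columns some intensity column had the identical rank order, but the condition agreed for only 6 and the full label for 1. Both arrays of DMSO replicate 3 and of SB202190 replicate 2 matched columns of the same BeadChip. The columns that matched none were those of SB202190 replicates 1 and 3 at both times (best rank correlation 0.934 to 0.9375). Results with SB202190 below rest in part on these columns. The SB202190 arrays lay close together (rank correlation within a group 0.933 to 0.938, against 0.857 to 0.901 in DMSO) and nearest to DMSO replicate 3. The median SD of a gene was 0.11 and 0.082 at 0 h and 4 h with SB202190, against 0.309 and 0.283 in DMSO. With only the SB202190 groups fitted, 1962 of 9123 genes rose and 2653 fell after LPS. With only the DMSO groups fitted, 0 rose and 0 fell (1029 at an unadjusted p under 0.05, limma). The fit of all 4 groups shares 1 spread per gene, so its DMSO p-values draw on the close SB202190 arrays too. The share of all genes without overlap was not computed, so non-overlap below describes values and is no result about a gene. Nothing states that the arrays of a group came from separate mice or cultures, so the p-values measure the spread between arrays, which may be technical. All 6 measured macrophage markers were above background on all 24 arrays, and of the 9 measured neutrophil and granulocyte precursor markers 8 to 9 were above background on the BeadChip of IKKβ replicate 2, against 1 to 3 on those of replicates 1 and 3. The summed intensity of the latter was 2084 to 4239 on that BeadChip and 1116 to 4729 on the others, and of 6 fibroblast and stroma markers 5 and 4 were above background on DMSO replicate 2 at 0 h and 4 h (summed intensity 1406 and 1469), against 1 to 3 on the other arrays of the p38 experiment (752.6 to 1299) and 0 to 3 in the IKKβ experiment (516.3 to 960.0). The part of these cells in the results was not tested.

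With the 4 groups of an experiment fitted together and no block, Abcg1 was the only one of these genes to pass in any comparison. Abcg1, the transporter that loads cholesterol onto high-density lipoprotein, fell 4.32-fold after LPS with SB202190 (log2 change -2.11, SE 0.371, adjusted p = 0.0091, limma), where 10.1% of all genes tested passed. Abcg1 was at 10.01, 9.63 and 9.61 at 0 h with SB202190 and at 7.67, 7.57 and 7.68 at 4 h. The 3 arrays of each time lay close together and the times did not overlap. In the DMSO control Abcg1 was at 8.68, 9.03 and 9.60 at 0 h and at 7.06, 8.78 and 7.58 at 4 h, where replicate 2 at 4 h overlapped the 0 h arrays (log2 change -1.30, SE 0.371, adjusted p = 0.0626). In wt BMDMs Abcg1 was at 8.65, 8.07 and 7.92 at 0 h and at 6.36, 7.73 and 7.41 at 4 h (log2 change -1.04, SE 0.345, adjusted p = 0.467). In IKKβ-deficient BMDMs it was at 8.81, 8.13 and 8.27 at 0 h and at 7.52, 7.64 and 7.97 at 4 h (log2 change -0.69, SE 0.345, adjusted p = 0.815). Neither genotype's times overlapped, and Abcg1 was lower at 4 h in all 12 pairs of arrays with the same number. The SB202190 pairs among them are pairs by label only. The change within a pair was -2.28 and -1.29 on the BeadChip of replicate 1, where Il1b was low at 0 h, and -0.51 to -0.30 on the other BeadChips of the IKKβ experiment. The Abcg1 call was lost when the 3 SB202190 arrays of each time were averaged as 1 sample, which leaves 1 against 1 and the same log2 change (adjusted p = 1), and without replicate 1 or replicate 3, where the log2 change was -2.00 and -2.20 (adjusted p = 0.177 and 0.156), and over the 28 settings its adjusted p ran from 4.47e-10 to 1. With the intensity columns taken under their own labels, which disagree with those of the normalized columns, the log2 change was -0.23.

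**Figure D1:**
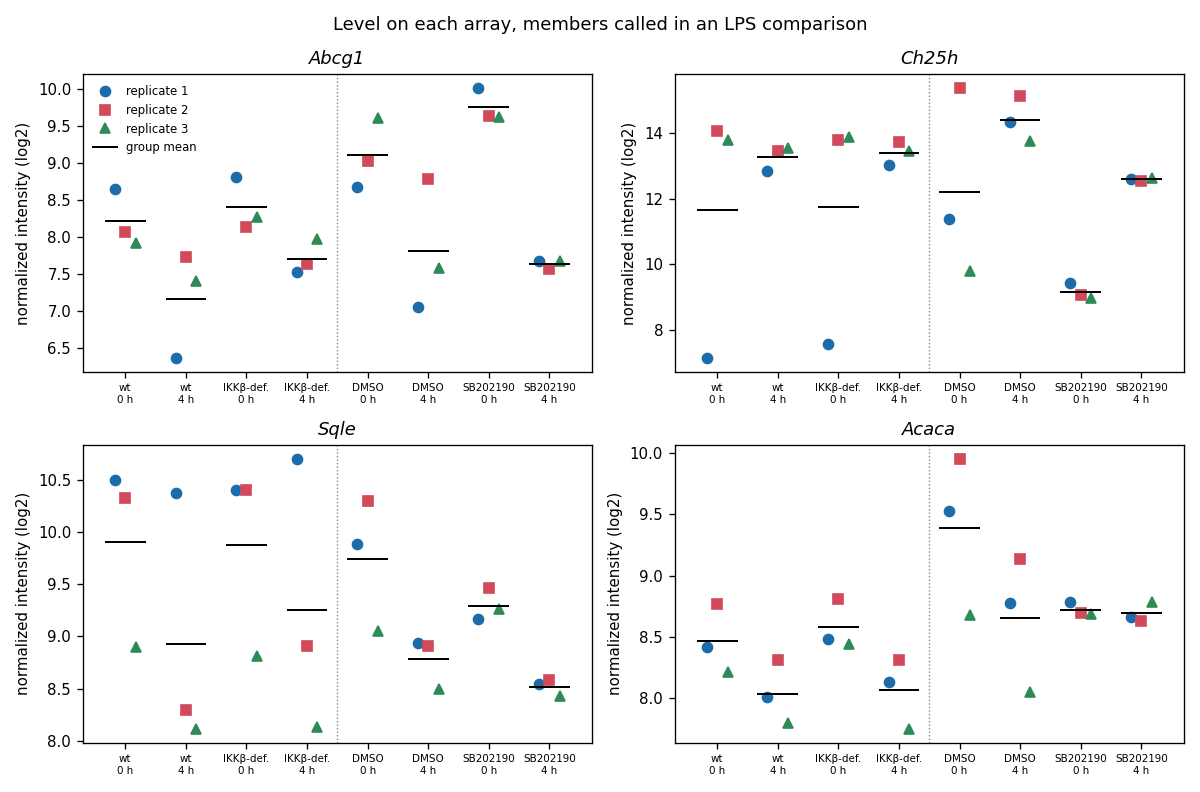
Log2 normalized intensity of Abcg1, Ch25h, Sqle and Acaca on each of the 24 arrays, by group; marker shape and colour give the replicate number, black bars the group mean of 3 arrays, and the dotted line separates the 2 experiments, which were normalized separately. Abcg1 with SB202190 fell from 9.61 to 10.01 at 0 h to 7.57 to 7.68 at 4 h, and Ch25h at 0 h was at 7.15 and 7.60 on IKKβ replicate 1 but at 13.77 to 14.05 on replicates 2 and 3.

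Ch25h, cholesterol 25-hydroxylase, had the widest spread of these genes between arrays of a group. In wt BMDMs it was at 7.15, 14.05 and 13.79 at 0 h and at 12.85, 13.43 and 13.53 at 4 h. In IKKβ-deficient BMDMs it was at 7.60, 13.77 and 13.86 at 0 h and at 13.01, 13.72 and 13.46 at 4 h. On replicate 1 Ch25h was higher at 4 h by 5.69 and 5.41 on the log2 scale, and on replicates 2 and 3 it was above its 4 h level already at 0 h. The 3 DMSO arrays were at 11.39, 15.36 and 9.82 at 0 h and at 14.32, 15.11 and 13.75 at 4 h, with the highest 0 h value again on replicate 2. With SB202190 the values were 9.45, 9.06 and 8.98 at 0 h and 12.60, 12.54 and 12.63 at 4 h, which did not overlap (log2 change 3.42, SE 1.04, adjusted p = 0.0616 over all genes). With the intensity columns under their own labels the change was -0.29. Under those labels LPS called 0 of all genes in the DMSO control and 0 with SB202190 (68 and 53 of 9123 at an unadjusted p under 0.05). Under the labels of the normalized columns 592 and 922 were called with all 4 groups fitted. With only the DMSO groups fitted under these labels, LPS called 0 of 9123 genes in DMSO, so the 592 rest on the spread shared with SB202190. Under the labels of the normalized columns Ch25h was higher at 4 h by 3.15, 3.48 and 3.64 in the SB202190 pairs. At 4 h every SB202190 array was below every DMSO array.

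The other LXR genes moved less. Lpcat3, a lysophospholipid acyltransferase, was at 10.81, 10.78 and 10.56 at 0 h and at 10.04, 10.12 and 9.89 at 4 h with SB202190 (log2 change -0.70, SE 0.234, adjusted p = 0.0845), and at 10.07, 10.98 and 10.48 and then 10.25, 10.90 and 10.31 in the DMSO control. The difference between those LPS responses was -0.67 (SE 0.331, adjusted p = 0.925). In the IKKβ experiment Lpcat3 ran from 9.19 to 10.34 with overlap of all groups. Apoe, the apolipoprotein that macrophages secrete, was at 10.86, 11 and 10.98 and then at 10.50, 10.50 and 10.45 with SB202190. Mylip, which marks the LDL receptor for degradation, was above the background level of 6.93 on at most 1 array of each group of the p38 experiment and gave no usable fold. The median log2 LPS change of the LXR targets measured was 0.06 in wt BMDMs (3 genes), -0.64 in IKKβ-deficient BMDMs (3 genes), -0.09 in the DMSO control (4 genes) and -0.58 with SB202190 (4 genes), beside medians of -0.03, -0.02, -0.04 and -0.03 over all genes tested. Within replicates 1, 2 and 3 the median was -0.40, -0.11 and -0.12 in wt and -1.23, -0.29 and -0.30 in IKKβ-deficient BMDMs. In the DMSO control it was -0.21, -0.02 and -0.11, and with SB202190 -0.56, -0.58 and -0.60. With 3 or 4 genes these medians are each the value of 1 or 2 genes. Apoe changed by -0.40, 0.54 and 0.08 within these replicates in wt and by -1.23, -0.26 and -0.43 in IKKβ-deficient BMDMs. Nr1h3, which encodes LXRα, was at 12.06, 11.99 and 12.01 at 0 h and at 11.14, 10.83 and 11.07 at 4 h with SB202190, with no overlap, while the DMSO arrays were at 10.38, 9.20 and 11.90 and then at 11.03, 8.54 and 12.03.

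Genes of sterol synthesis were mostly lower after LPS, and in the IKKβ experiment not on the BeadChip whose 0 h arrays had low LPS response genes. Of 12 genes tested, 11 were lower at 4 h in wt BMDMs (median log2 change -0.27) and 11 in IKKβ-deficient BMDMs (median -0.26). Within BeadChips the wt median was 0.04, -0.37 and -0.21 for replicates 1, 2 and 3, with 5, 12 and 11 of 12 genes lower. The IKKβ-deficient median was 0.10, -0.52 and -0.28, with 4, 12 and 11 lower. Of all 8569 genes, 4803, 4405 and 4603 were lower in wt and 4467, 4558 and 4624 in IKKβ-deficient BMDMs. Without a block no gene of the 24 passed in either genotype (limma). At an unadjusted p under 0.05 there were 2 in wt and 1 in IKKβ-deficient BMDMs, and the methods' t-test passed 0 after adjustment in both. Among all genes 0.0467% passed in wt BMDMs, the 4 genes Gadd45a, Gfi1, Shisa3 and Zfand2b, which are named because they are few, and 0% in IKKβ-deficient BMDMs. With the replicate number as a block, which in this experiment marks a shared BeadChip, Stard4, Acaca and Ebp fell in wt BMDMs, 3 of 24 where 6.41% of all genes passed. Acaca fell in IKKβ-deficient BMDMs under the same block, 1 of 24 where 3.8% of all genes passed.

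Ebp, the sterol isomerase, was at 9.80, 9.96 and 9.71 at 0 h and at 9.39, 9.66 and 9.20 at 4 h in wt BMDMs. Its log2 change was -0.41 (SE 0.149, adjusted p = 0.554 without a block and 0.0335 with the replicate block, where adjusted p ran from 0.0335 to 1 over the 26 settings). IKKβ-deficient BMDMs had 9.66, 9.95 and 9.74 and then 9.41, 9.66 and 9.42. Ebp was lower at 4 h in 12 of 12 pairs of arrays, and so was Dhcr7, the reductase of the last step. Dhcr7 was at 6.96, 7.00 and 6.51 and then 6.35, 6.70 and 6.38 in wt BMDMs, and no array of either genotype was above background at 4 h. The 0 h mean lay 1.11-fold above the background bound for 4 h in wt and 1.18-fold above it in IKKβ-deficient BMDMs. In wt BMDMs Dhcr7 was above background at 0 h on only 2 of 3 arrays, so the wt figure is not a strict lower limit. Sqle, squalene epoxidase, moved unequally on the 3 BeadChips. It was at 10.50, 10.32 and 8.90 at 0 h and at 10.37, 8.29 and 8.11 at 4 h in wt BMDMs. In IKKβ-deficient BMDMs it was at 10.40, 10.40 and 8.81 and then at 10.70, 8.91 and 8.13. In wt and IKKβ-deficient BMDMs replicate 1 moved by -0.14 and 0.30 and replicate 2 by -2.02 and -1.49. Hsd17b7 and Cyp51, enzymes that trim lanosterol, behaved likewise in wt BMDMs, with log2 changes of 0.73, -1.26 and -0.22 and of 0.97, -1.05 and -0.48 for replicates 1, 2 and 3. In the mevalonate arm, Hmgcs1, which makes HMG-CoA, changed by 0.18, -0.17 and -0.51 and Fdps by 0.06, -0.73 and -0.75. Nsdhl, a sterol dehydrogenase, in IKKβ-deficient BMDMs was at 6.77, 7.18 and 7.07 and then at 6.54, 6.78 and 6.77 (log2 change -0.31, SE 0.155, adjusted p = 0.815).

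**Figure D2:**
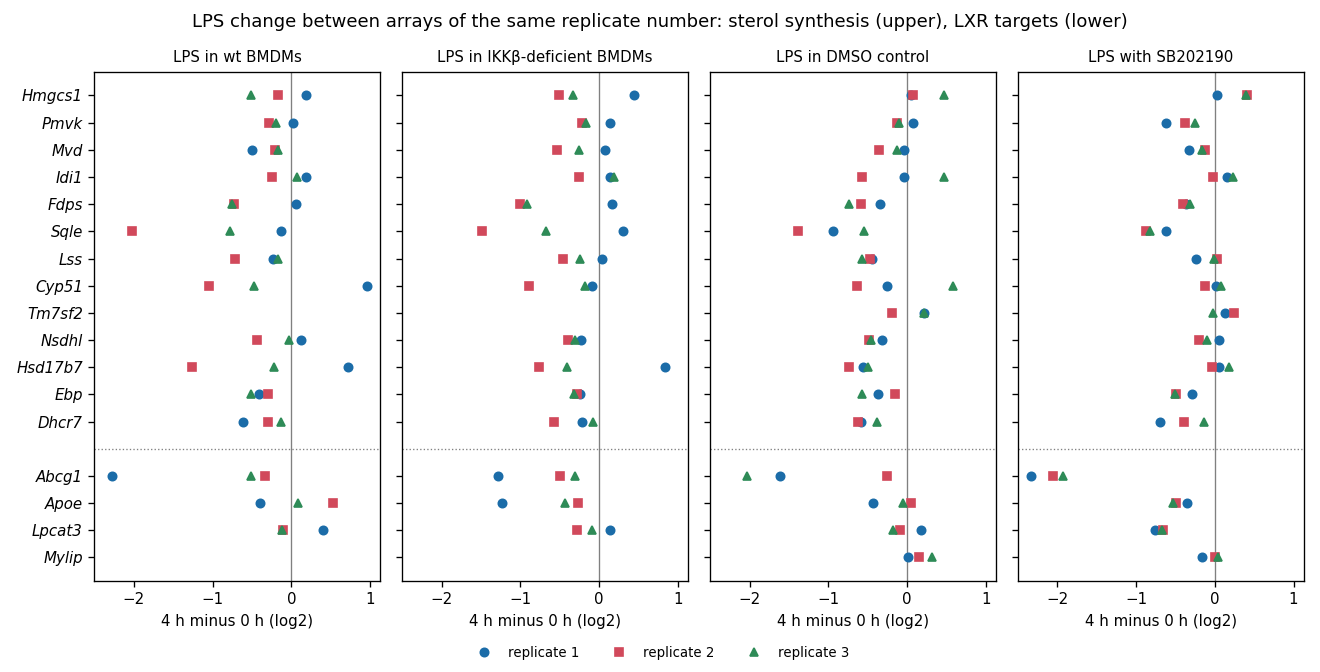
Log2 change from 0 h to 4 h of LPS between arrays with the same replicate number, for 13 sterol synthesis genes (above the dotted line) and 4 LXR targets (below it), in wt, IKKβ-deficient, DMSO control and SB202190-treated BMDMs; each marker is 1 pair of arrays. Most sterol synthesis genes of IKKβ replicate 1 lie near 0 or to its right, those of replicates 2 and 3 to its left, and Abcg1 lies left of 0 in all 12 pairs.

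In the p38 experiment the sterol synthesis genes were mostly lower after LPS in each DMSO pair. Of all 9123 genes, 5045, 4776 and 5055 were lower at 4 h in DMSO replicates 1, 2 and 3, and 4920, 4988 and 4947 with SB202190. Of the 13 sterol synthesis genes tested 11 were lower at 4 h in the DMSO control. Their median log2 change was -0.36, with medians of -0.32, -0.49 and -0.38 within replicates 1, 2 and 3. With SB202190, 9 of 13 were lower, with a median of -0.08 and pair medians of -0.24, -0.13 and -0.10. The difference between these responses was not called for any gene of the 28 without a block, with 0 at an unadjusted p under 0.05, where 0.0219% of all genes passed, namely Pik3cg and Rhou. Sqle was at 9.88, 10.30 and 9.05 and then at 8.94, 8.91 and 8.50 in the DMSO control, 1.95-fold lower at 4 h (log2 change -0.96, SE 0.264, adjusted p = 0.0555, and 0.0371 with the replicate number as a block, from 0.00209 to 1 over the 28 settings). With SB202190 Sqle was at 9.16, 9.46 and 9.26 and then at 8.54, 8.58 and 8.43, without overlap (log2 change -0.78, SE 0.264, adjusted p = 0.0877). Ebp was at 10.92, 11 and 11.18 and then 10.55, 10.85 and 10.62 in DMSO, and at 11.06, 11.19 and 11.24 and then 10.77, 10.70 and 10.73 with SB202190, with no overlap in either (adjusted p = 0.0981 and 0.051). Dhcr7 was at 7.54, 7.94 and 7.17 and then 6.95, 7.33 and 6.79 in DMSO, where DMSO replicate 3 at 0 h lay below DMSO replicate 2 at 4 h (log2 change -0.52, SE 0.206, adjusted p = 0.144). Hsd17b7 was at 9.01, 10.13 and 8.65 and then 8.45, 9.40 and 8.16 in DMSO, and at 8.65, 8.92 and 8.81 and then 8.71, 8.88 and 8.99 with SB202190. Lss, lanosterol synthase, was at 8.20, 8.79 and 8.17 and then 7.75, 8.32 and 7.59 in DMSO, and at 8.27, 8.41 and 8.49 and then 8.03, 8.45 and 8.48 with SB202190. For both genes the pairs of the DMSO control moved by -0.45 to -0.73 and those with SB202190 by -0.24 to 0.18.

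These LPS calls of the p38 experiment depended on how the BeadChip was treated. In the DMSO control 0 of 28 genes passed without a block (5 at an unadjusted p under 0.05, 0 by the methods' t-test), where 6.49% of all genes passed. With only the DMSO groups fitted, 0 of 9123 genes passed. With the BeadChip of the matching column as a block, a setting chosen after the data were seen in which SB202190 replicates 1 and 3 were placed with replicate 2, 11 of 28 passed in the DMSO control, where 33.4% of all genes passed. Acaca, Sqle, Hsd17b7, Fdps, Abcg1, Dhcr7, Lss, Ebp, Nsdhl and Stard4 fell and Ch25h rose. Under this block 6 of the 8 genes from squalene to cholesterol fell. With SB202190, 10 of 28 passed, where 34.2% of all genes passed. Abcg1, Lpcat3, Sqle, Nr1h3, Apoe, Pmvk, Ebp, Dhcr7 and Fdps fell and Ch25h rose. Of the 4 LXR targets 3 fell there, and of the 13 sterol synthesis genes 5. Of all genes 20.2% fell in the DMSO control and 19.4% with SB202190 under this block, against 10 and 9 of these 28 genes. With the 3 SB202190 arrays of each time also averaged as 1 sample no gene of either comparison passed (9 and 2 of 28 at an unadjusted p under 0.05).

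The regulators of the pathway were not called in any comparison without a block. Insig1, which retains the SREBP complex, was at 7.82, 8.57 and 8.37 at 0 h in wt BMDMs and at 7.79, 8.51 and 7.76 in IKKβ-deficient BMDMs. At 4 h it was at 8.06, 8.00 and 7.76 in wt and at 8.44, 8.24 and 7.90 in IKKβ-deficient BMDMs. The difference between genotypes in its LPS response was 0.49 (SE 0.36, adjusted p = 1), with the IKKβ-deficient change the higher within all 3 BeadChips (by 0.41, 0.30 and 0.75). Scap was at 7.23, 7.12 and 7.56 and then 7.52, 7.34 and 7.65 in wt BMDMs, and at 7.27, 6.99 and 7.46 and then 7.28, 7.08 and 7.32 in IKKβ-deficient BMDMs. Srebf2, which encodes SREBP2, was higher at 4 h on replicate 1 of both genotypes (by 0.89 and 0.76), and on the other BeadChips it changed by -0.50 to 0.07. In the DMSO control it changed by 0.58, -0.78 and 0.58, again with replicate 2 apart, and with SB202190 by -0.10 to 0.05. Srebf1 moved by no more than 0.46 in either direction within any pair. Stard4, a carrier of cholesterol between membranes, was lower at 4 h in 12 of 12 pairs. It was at 7.56, 6.98 and 6.81 and then 7.02, 6.47 and 6.49 in wt BMDMs, and at 7.88, 7.45 and 7.24 and then 7.45, 6.97 and 6.99 in IKKβ-deficient BMDMs. With the replicate block the wt change was -0.46 (SE 0.0916, adjusted p = 0.0266, against 0.76 without the block and up to 1 over the 25 settings). In wt BMDMs at 4 h Stard4 was above background on 1 of 3 arrays, so the size of this fall is uncertain.

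Acaca, acetyl-CoA carboxylase, which commits carbon to fatty acids, was lower at 4 h in 11 of 12 pairs. In wt BMDMs it was at 8.42, 8.77 and 8.22 and then at 8.01, 8.31 and 7.80, and within BeadChips it changed by -0.41, -0.46 and -0.42. In IKKβ-deficient BMDMs it was at 8.48, 8.81 and 8.45 and then at 8.13, 8.31 and 7.75. The adjusted p was 0.722 and 0.692 without a block and 0.0299 and 0.0237 with the replicate block (up to 1 over the 26 settings of each). In the DMSO control Acaca was at 9.53, 9.95 and 8.68 and then at 8.78, 9.14 and 8.05, a change of -0.75, -0.82 and -0.63 within the pairs. With SB202190 it was at 8.78, 8.69 and 8.69 and then at 8.66, 8.63 and 8.79, a change of -0.12, -0.06 and 0.10. The pairs of the DMSO control and those with SB202190, which are pairs by label only, did not overlap. The difference between the responses was 0.70 (SE 0.447, adjusted p = 1) without a block and passed with the BeadChip of the matching column as a block (SE 0.123, adjusted p = 0.025), 1 of 28 genes where 2.5% of all genes passed. With the SB202190 arrays also averaged it was 1 of 28 at an unadjusted p under 0.05 and none after adjustment. Fasn, fatty acid synthase, and Scd2 were above the background level of 6.93 on at most 1 array of each group of the p38 experiment, so that no fold is given.

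Several genes differed more between replicate numbers than between conditions. Scd1, stearoyl-CoA desaturase, was at 6.44 to 6.80 on the 4 arrays of IKKβ replicate 1, at 8.22 to 9.36 on those of replicate 2 and at 7.30 to 8.86 on those of replicate 3. In the p38 experiment Scd1 was at 10.65 and 10.06 on DMSO replicate 2 and at 6.48 to 6.70 on the other 10 arrays. Nr1h3 was at 10.66 to 11.63 on IKKβ replicate 1, at 8.92 to 9.24 on replicate 2 and at 8.14 to 8.69 on replicate 3, and in the p38 experiment DMSO replicate 2 was lowest (9.20 and 8.54). Fdps, farnesyl diphosphate synthase, was at 11.13 to 12.37 on IKKβ replicate 2 against 9.10 to 10.60 on the other BeadChips. DMSO replicate 2 again stood apart for Fdps, at 12.81 and 12.23 against 9.63 to 10.38 on the other 10 arrays. Apoe was at 8.73 to 9.72 on IKKβ replicate 2 and at 11.24 to 13.18 on replicates 1 and 3. DMSO replicate 1 had the highest Apoe of the p38 experiment (12.98 and 12.54 against 10.29 to 11). The replicates with high Scd1 are those with high Il1b at 0 h, except DMSO replicate 3, where Il1b was at 11.96 and Scd1 at 6.67. The part of the BeadChip in these levels was not tested.

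**Figure D3:**
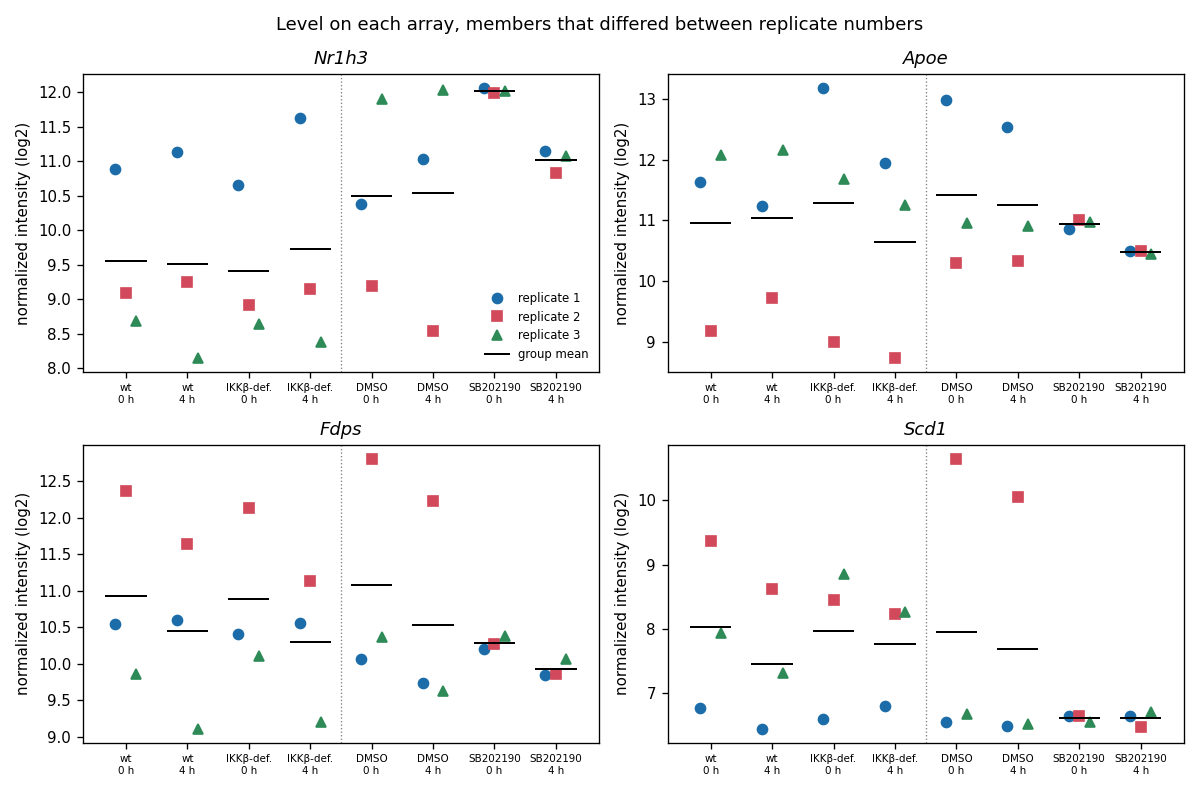
Log2 normalized intensity of Nr1h3, Apoe, Fdps and Scd1 on each of the 24 arrays, by group; marker shape and colour give the replicate number and black bars the group mean of 3 arrays, with the experiments separated by a dotted line. Within the IKKβ experiment the replicate numbers separate more than the groups (Scd1 at 6.44 to 6.80 on replicate 1 and at 8.22 to 9.36 on replicate 2), and the 6 SB202190 arrays lie close together within each time.

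Loss of IKKβ called none of the 24 genes at 0 h or at 4 h, nor in the LPS response (limma, with 0 at an unadjusted p under 0.05 in each). The methods' t-test, run on the 0 h and 4 h comparisons, also called 0. Among all genes 0% passed at 0 h, 0.0117% at 4 h, which was Ikbkb alone, and 0% for the LPS response. The sterol synthesis genes had a median log2 difference, IKKβ-deficient minus wt, of -0.04 at 0 h and 0.06 at 4 h, and the LXR targets of 0.19 and -0.29 over 3 genes. The medians over all genes tested were 0.01 and 0.02. The largest of these differences by p was that of Stard4, which was higher without IKKβ on every BeadChip at both times. Its log2 difference was 0.40 at 0 h (SE 0.255, adjusted p = 1) and 0.48 at 4 h (SE 0.255, adjusted p = 1), with 0.32, 0.47 and 0.42 within BeadChips 1, 2 and 3 at 0 h and 0.43, 0.50 and 0.50 at 4 h. At 4 h the wt level of Stard4 was near background, with 1 of 3 arrays above it. Abcg1 at 4 h was higher by 0.54 (SE 0.345, adjusted p = 1), with 1.16, -0.09 and 0.56 within BeadChips 1, 2 and 3. Cyp51, which takes a methyl group from lanosterol, was at 8.20, 9.23 and 8.34 in wt and at 8.12, 8.82 and 7.81 in IKKβ-deficient BMDMs at 0 h, and at 9.17, 8.18 and 7.86 against 8.03, 7.93 and 7.64 at 4 h. It was lower without IKKβ in all 6 same-number comparisons, by 0.34 on average at 0 h (SE 0.391, adjusted p = 1). Idi1, an isomerase of the mevalonate arm, stayed between 6.50 and 6.87 on all 12 arrays. A p that missed the threshold here does not show that the genotypes were alike.

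SB202190 against DMSO called none of the 28 genes at either time without a block (limma, with 2 at an unadjusted p under 0.05 at 0 h and 1 at 4 h, and 0 by the methods' t-test), where 0% of all genes passed at 0 h and 3.27% at 4 h. The sterol synthesis genes had a median log2 difference, SB202190 minus DMSO, of -0.24 at 0 h (9 of 13 lower) and -0.02 at 4 h (8 of 13 lower), and the LXR targets of 0.23 and -0.32 over 4 genes. The medians over all genes tested were 0.008 and 0.015. With the BeadChip of the matching column as a block the sterol synthesis medians were 0.04 and 0.12. In this block all SB202190 arrays are placed with DMSO replicate 3 and with no other DMSO replicate. Its differences between treatments therefore take their DMSO level from that replicate. Mvd, mevalonate diphosphate decarboxylase, had the smallest p at both times. It was at 7.68, 7.56 and 7.86 in DMSO and at 8.30, 8.19 and 8.35 with SB202190 at 0 h (log2 difference 0.58, SE 0.153, adjusted p = 0.418). At 4 h it was at 7.65, 7.20 and 7.73 against 7.97, 8.06 and 8.18 (0.55, SE 0.153, adjusted p = 0.0808), and the treatments did not overlap at either time. Pmvk, phosphomevalonate kinase, was at 7.94, 8.09 and 7.50 in DMSO and at 7.34, 7.49 and 7.52 with SB202190 at 4 h. Set against DMSO replicate 3 alone, the array nearest to the SB202190 arrays, the SB202190 mean at 4 h was higher by 0.73 for Lss, 0.69 for Hsd17b7 and 0.64 for Acaca, and lower by 1.02 for Nr1h3 and 1.16 for Ch25h. The mean difference from all 3 DMSO arrays was smaller for Lss (0.43) and was 0.48 in the other direction for Nr1h3. For Hsd17b7 and Acaca it was only 1.14-fold and 1.03-fold higher with SB202190, and against DMSO replicate 2 both were lower (by 0.54 and 0.44). Ch25h was 3.49-fold lower than the mean of all 3 DMSO arrays. With the BeadChip of the matching column as a block, Acaca (0.70), Hsd17b7 (0.74), Lss (0.69) and Dhcr7 (0.57) were higher and Nr1h3 (-0.97) was lower at 4 h. These were 5 of 28 where 11% of all genes passed, with adjusted p from 0.00456 to 0.0314 (limma). They are not separate from the differences from DMSO replicate 3 alone, because that replicate sets the DMSO level in both. At 0 h none of the 28 passed under this block (5 at an unadjusted p under 0.05), where 0.153% of all genes passed. With the SB202190 arrays also averaged none passed at 4 h (4 at an unadjusted p under 0.05, adjusted p = 0.733 for Hsd17b7, Lss and Acaca). Scd1 was above background in DMSO on replicate 2 only, so that a fold of at least 1.7 at 4 h in favour of DMSO rests on that array.

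**Figure D4:**
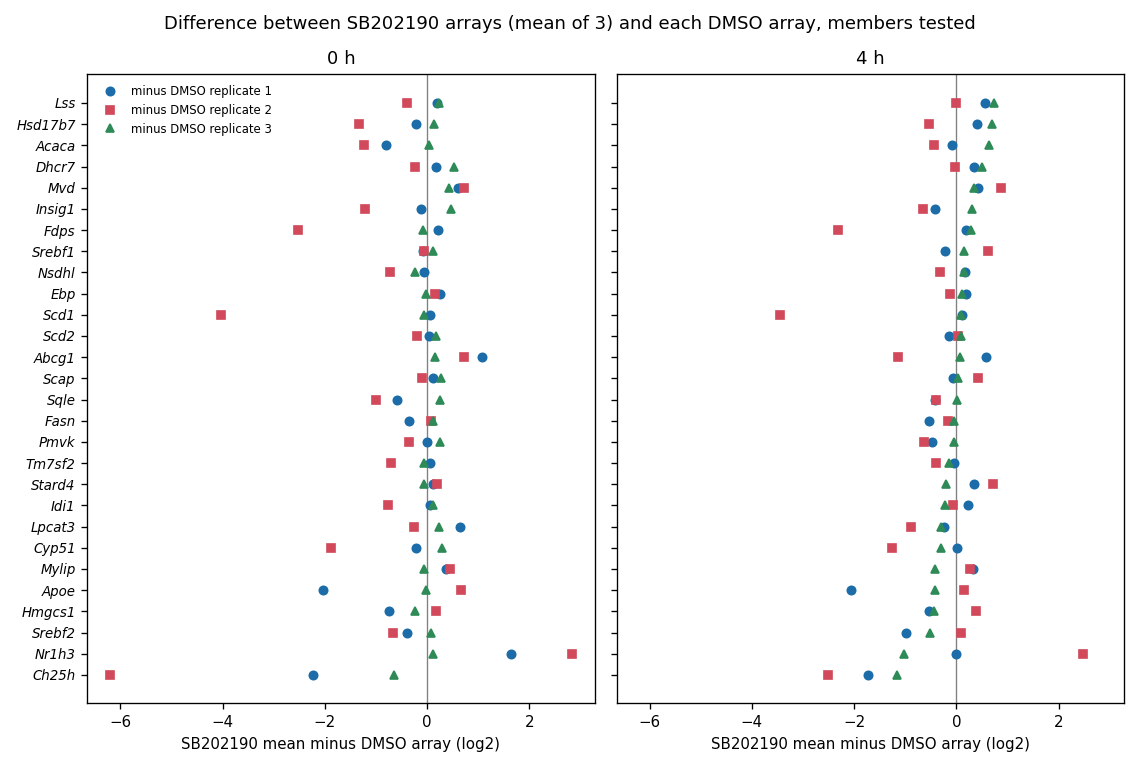
Log2 difference between the mean of the 3 SB202190 arrays and each DMSO array at 0 h (left) and 4 h (right), for the 28 genes tested in the p38 experiment; marker shape and colour give the DMSO replicate, and genes are ordered by the difference from DMSO replicate 3 at 4 h. For Nr1h3 at 4 h the SB202190 mean was lower than DMSO replicate 3 by 1.02 and higher than DMSO replicate 2, and differences from replicate 2 reach furthest from 0 (Ch25h and Scd1).

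Further genes of these pathways, listed for the roles they are known for, were tested in the same fits, with 6.49% of all genes passing after LPS in DMSO and 10.1% with SB202190. The counts of 1 or 2 genes per list of 9 to 15 after LPS are near those shares and are no result about the lists. With only the DMSO groups fitted, 0 of 9123 genes passed after LPS in DMSO. The LPS calls of the listed genes in DMSO therefore come only with the spread shared by all 4 groups. Every p38 call of these genes without a block was lost with the SB202190 arrays averaged and with the intensity columns under their own labels, where 0 of 9123 genes passed. Fads1, a desaturase of polyunsaturated fatty acids, fell in both arms of the p38 experiment without a block. It was at 12.82, 12.84 and 12.58 at 0 h and at 11.01, 11.77 and 10.82 at 4 h in the DMSO control (log2 change -1.55, SE 0.213, adjusted p = 0.00692), and it changed by -1.15 with SB202190 (adjusted p = 0.0108). With the replicate block of the IKKβ experiment it also fell by 1.89 in wt (adjusted p = 0.0131) and by 1.60 in IKKβ-deficient BMDMs (adjusted p = 0.0244). Of all genes 6.41% and 3.8% passed in these 2 comparisons. Of the 15 other fatty acid genes tested in the p38 experiment, 2 fell in DMSO (Fads1 and Elovl5, an elongase) and 2 with SB202190 (Fads1 and Pparg, a lipid-sensing nuclear receptor). Of 10 other sterol and SREBP genes, Msmo1, the methylsterol oxidase, fell in DMSO (log2 change -0.89, adjusted p = 0.0177) and Insig2 rose with SB202190 (0.98, adjusted p = 0.00698). Of 9 other LXR target genes, Mertk, a receptor for apoptotic cells, fell in both (-1.36 and -1.16, adjusted p = 0.0268 and 0.0354). Of 12 genes of sterol transport and storage, Nceh1, a cholesterol ester hydrolase, fell in DMSO (-1.75, adjusted p = 0.0204), and Plin2, a lipid droplet coat protein, and Lipa, the lysosomal acid lipase, fell with SB202190 (-1.46 and -0.96, adjusted p = 0.0122 and 0.0326). At 4 h Elovl5, Nceh1 and Hsd3b7, an oxysterol dehydrogenase, were higher with SB202190 than in DMSO, where 3.27% of all genes passed (0.98, 1.72 and 1.03, adjusted p = 0.0239, 0.0293 and 0.0482). Elovl5 was at 11.32, 11.69 and 11 in DMSO and at 12.27, 12.35 and 12.31 with SB202190. In the IKKβ experiment none of the listed genes passed without a block in any comparison. With the replicate block Elovl5, Acly, which makes cytosolic acetyl-CoA, and Lpl were among those that fell and Stard5, a lipid-binding protein, rose in wt BMDMs (log2 change 1.32, adjusted p = 0.0218). Under this block 6.41% of all genes passed in wt BMDMs. Counts per list are not given for it, so these genes are examples and no result about the lists.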

How the data were processed

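RNA of BMDMs was hybridized to Illumina MouseRef-8 v2 BeadChips, 24 arrays in all. The authors read probe intensities and detection p-values in BeadStudio 3.1 and deposited them, with quantile-normalized intensities from Partek (version not given in the sources used here), each experiment by itself. The deposited normalized intensity was taken to log2 and fitted with limma 3.58.1 in R 4.3.3, with group means of the 4 groups of an experiment. Genes with a deposited detection p-value under 0.05 on at least 3 of 12 arrays were kept, with the brightest probe per gene, and p-values were adjusted over all genes tested by Benjamini-Hochberg (threshold 0.05). The detection p-values belong to the intensity columns and were taken by label. In the p38 experiment the full label agreed for only 1 of 12 normalized columns, so its filter may in part rest on other arrays. Of the probes, 23978 had 1 symbol. The number of arrays limits the precision.

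Per the labels, a replicate number stands for a BeadChip. Among the IKKβ arrays, deviations from group means correlated between same-numbered arrays (0.424 to 0.925) and the numbers were used as a block in an alternative. In the p38 experiment same-numbered DMSO arrays correlated (0.525 to 0.584), but SB202190 arrays did so weakly (0.0602 to 0.0935) and SB202190 with DMSO did not (-0.064 to 0.0641), so the numbers were not taken to pair these samples. Normalized and intensity columns were compared by rank correlation, and 3 settings for the p38 experiment were added after the data were seen. Other alternatives were other normalizations, filters, probe rules, array weights, leaving out arrays and the methods' t-test. The members and lists were chosen with earlier results of these data known. Every array's value is given for members that passed without or with the replicate block and, where fewer than 4 passed, for the 4 members with the smallest p. Of the other lists, the 4 genes with the smallest p among those that passed a comparison are named, and further ones, as well as members named for their spread between BeadChips, were chosen after their values were seen. The fits were tested on simulated data. Of the members, 27 matched a RefSeq promoter (GRCm38.p6).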

Additional observations from a re-analysis of the deposited data

Results flagged for a closer look

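The LPS response of Acaca differed between SB202190 and the DMSO control by 0.70 on the log2 scale (SB202190 minus DMSO) in the test of the difference itself, with the BeadChip of the matching column as a block (limma, SE 0.123, adjusted p = 0.025). The setting was chosen after the data were seen, and it placed SB202190 replicates 1 and 3, which matched no intensity column, with replicate 2 by assumption. Acaca was 1 of 28 genes to pass this test, where 2.5% of all genes passed, so the count is near that share. The fit counts the SB202190 arrays as separate samples. Their median SD of a gene was 0.11 and 0.082 at 0 h and 4 h, against 0.309 and 0.283 in DMSO. The call was not kept when these arrays were also averaged as 1 sample per time. The changes within pairs were -0.75, -0.82 and -0.63 in the DMSO control and -0.12, -0.06 and 0.10 with SB202190, and the adjusted p without a block was 1.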

How the results depend on the processing

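Over all alternatives, 221 counts of called members stayed within 1.5 times the main count and 35 did not. Of the list medians, 402 moved by less than the spread between arrays and 14 by more. These tallies do not measure stability. Every main count but that after LPS with SB202190 was 0. The replicate block, array weights, the methods' t-test, the compared groups alone and averaged SB202190 arrays leave a median unchanged by design. With the replicate block the members called were 3 after LPS in wt, 1 in IKKβ-deficient BMDMs, 1 in the DMSO control and 4 with SB202190; in the p38 experiment same-numbered arrays deviated together within DMSO, not between DMSO and SB202190. With the BeadChip of the matching column as a block they were 11 after LPS in DMSO, 10 with SB202190, 5 for SB202190 at 4 h and 1 for the difference in response, and with the SB202190 arrays also averaged 0 after LPS with SB202190. With DMSO replicate 3 alone, which leaves 1 DMSO array per time, assumed to vary like the close SB202190 arrays that supply all of the spread, they were 12 and 11 after LPS, 1 and 11 for SB202190 at 0 h and 4 h and 3 for the difference, and the SB202190 medians at 0 h were 0.14 (sterol synthesis, -0.24 with all DMSO arrays) and 0.066 (LXR targets). After LPS with SB202190 they were 0 with intensity columns under their own labels or SB202190 averaged, 2 without a detection filter or with the mean of probes, 11 with only the compared groups, 8 with array weights and 9 by the methods' t-test; for SB202190 at 4 h only the compared groups gave 1. LXR target medians moved to -0.077 after LPS in IKKβ-deficient BMDMs without a detection filter, to -0.17 after LPS with SB202190 and to 0.049 and -0.14 for SB202190 at 0 h and 4 h with intensity columns under their own labels, and to -0.47 at 4 h with genes detected on all arrays. Ch25h after LPS with SB202190 reversed to -0.29 with intensity columns under their own labels. The cause was not tested for any of these. Median scaling moved the median of all genes after LPS in wt BMDMs from -0.03 to -0.17, and the sterol synthesis median to -0.45. Leaving out arrays or replicates gave 0 to 4 members called after LPS in DMSO, 0 to 5 with SB202190, 0 to 1 and 0 to 2 for SB202190 at 0 h and 4 h, and LXR target medians of -0.82 to 0.070 (LPS, wt), -0.29 to 0.57 (IKKβ deficiency, 4 h), -0.35 to 0.016 (LPS, DMSO) and -0.42 to -0.16 (SB202190, 4 h). The sterol synthesis medians without 1 array ran from -0.48 to -0.071 (LPS, wt), -0.42 to -0.052 (IKKβ-deficient), -0.48 to -0.16 (DMSO), -0.20 to -0.034 (SB202190) and -0.33 to 0.060 (SB202190, 0 h).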
